A study of Mus musculus with 24 samples.

Results

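The genes of the vascular endothelial growth factor (VEGF) family were followed through 24 libraries of mouse hindlimb muscle. They are the ligands Vegfa, Vegfb, Vegfc, Figf (the file's symbol for VEGF-D) and Pgf (placental growth factor), the receptor tyrosine kinases Flt1, Kdr and Flt4, and the co-receptors Nrp1 and Nrp2. All 10 were chosen by name from the 24016 gene symbols of the deposited table, and for each the transcript with the highest mean level was used. Poly(A) RNA was sequenced 7 days after the femoral artery of 1 hindlimb had been ligated, an operation that leaves the calf short of blood while collateral arteries of the thigh carry the flow. The 4 groups, each of 6 libraries, were ischemic gastrocnemius (calf) muscle of type 2 diabetic mice, ischemic gastrocnemius of control mice, normoxic adductor (thigh) muscle of type 2 diabetic mice and normoxic adductor of control mice. All groups are on a C57BL/6 background and all come from ligated animals. How diabetes was brought about is not said in the labels, nor are the mice numbered, so the p-values reflect only how far these samples spread, some of which may be technical. Each ischemic library is gastrocnemius and each normoxic library is adductor, so ischemia and muscle identity cannot be told apart.

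VEGF-A is secreted by many cell types, muscle fibres among them, and its transcription is raised by hypoxia-inducible factors when oxygen is low. It acts mainly through VEGFR-2, the product of Kdr, on endothelial cells, while VEGFR-1, the product of Flt1, binds VEGF-A, VEGF-B and placental growth factor and also acts as a decoy. VEGF-C and VEGF-D are ligands of VEGFR-3, the product of Flt4, best known from lymphatic vessels, and the neuropilins encoded by Nrp1 and Nrp2 bind both VEGF and semaphorins on several cell types.

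The promoters of 5 members on whose values the results turn are shown first. Vegfa and Vegfb had lower means in gastrocnemius, though the muscles overlapped except for Vegfa in control mice. Pgf and Nrp1 lay higher there in both mouse groups, and the diabetic and control means of Figf lay in opposite order in the 2 muscles. All 10 members were found among the RefSeq promoter sequences (build GRCm38.p6, Figf under its newer symbol Vegfd), each of which runs from 250 bases before a gene's start to 50 after it. Capitals mark the GC box GGGCGG, a binding sequence of Sp-family factors, or its reverse complement. For Vegfa and Pgf the upstream of 2 listed starts is shown, while the transcripts whose levels were used begin at the downstream start.
Vegfa, upstream start, chr17:46032328-46032627, minus strand: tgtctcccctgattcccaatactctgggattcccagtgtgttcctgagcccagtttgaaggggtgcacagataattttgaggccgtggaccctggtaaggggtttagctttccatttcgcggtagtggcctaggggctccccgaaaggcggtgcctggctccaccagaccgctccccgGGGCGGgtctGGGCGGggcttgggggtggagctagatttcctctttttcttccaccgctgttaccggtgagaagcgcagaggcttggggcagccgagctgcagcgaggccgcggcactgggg
Vegfb, chr19:6987602-6987901, minus strand: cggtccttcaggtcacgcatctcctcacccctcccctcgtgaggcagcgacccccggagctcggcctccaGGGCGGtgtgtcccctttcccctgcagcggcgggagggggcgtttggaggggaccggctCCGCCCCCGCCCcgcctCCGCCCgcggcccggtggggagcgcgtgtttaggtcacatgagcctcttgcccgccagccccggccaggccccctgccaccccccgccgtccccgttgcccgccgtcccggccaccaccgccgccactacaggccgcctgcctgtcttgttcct
Pgf, upstream start, chr12:85177264-85177563, minus strand: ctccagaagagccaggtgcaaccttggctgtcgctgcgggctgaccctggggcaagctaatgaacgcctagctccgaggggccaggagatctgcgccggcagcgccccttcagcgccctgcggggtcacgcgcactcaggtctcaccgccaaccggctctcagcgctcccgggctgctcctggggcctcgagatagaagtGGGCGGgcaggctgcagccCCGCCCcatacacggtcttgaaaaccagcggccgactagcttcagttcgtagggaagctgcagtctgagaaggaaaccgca
Nrp1, chr8:128358823-128359122, plus strand: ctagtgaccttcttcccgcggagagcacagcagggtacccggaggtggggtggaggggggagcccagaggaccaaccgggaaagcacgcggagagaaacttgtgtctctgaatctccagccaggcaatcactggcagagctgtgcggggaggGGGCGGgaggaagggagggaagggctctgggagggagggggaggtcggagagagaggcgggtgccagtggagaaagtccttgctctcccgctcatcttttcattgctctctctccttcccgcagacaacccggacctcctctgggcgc
Figf, chrX:164373272-164373571, plus strand: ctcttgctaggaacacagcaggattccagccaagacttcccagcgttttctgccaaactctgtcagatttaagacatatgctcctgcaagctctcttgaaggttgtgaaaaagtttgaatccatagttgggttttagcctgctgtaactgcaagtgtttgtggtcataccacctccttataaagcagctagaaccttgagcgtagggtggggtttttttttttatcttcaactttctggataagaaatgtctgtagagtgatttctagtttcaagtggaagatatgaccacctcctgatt
The GC box, searched on both strands, was present at a listed start of 9 of the 10 members and in 35.66% of all 32851 promoters. Figf was the only member with none at any listed start, though the downstream window of Pgf, where its transcript used begins, also held 0. At 42.0% G and C the Figf window was below the median of all promoters, 52.7%. The windows shown for Vegfb and Vegfa held 75.3% and 62.0%. The core of the hypoxia response element, ACGTG on either strand, was found in 19.62% of all promoters and in 1 member window, that of a second start of Vegfa, downstream of the one shown. TATAAA was found in Figf and Flt1 and in 13.62% of all promoters. These matches describe the letters of the windows and no factor was measured on them.

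Levels are given in the deposited unit, RPKM (reads per kilobase of exon, divided by the size of the library). The libraries held 7.13 to 15.6 M reads. They fell into sets that no label names, recognised after the data were seen by Gapdh, a glycolytic enzyme, which lay at 677 to 1757 RPKM in 14 libraries (the first set, diabetic 1 to 4 and control 1 to 3 of both muscles) and at 0.365 to 13.7 RPKM in 10 (the second set, diabetic 5 and 6 and control 4 to 6). Gapdh also parted the mouse groups inside the second set, at 3.71 to 13.7 RPKM in diabetic and 0.365 to 0.831 RPKM in control libraries. Tests were limma fits of log2(RPKM + 0.5) across 12382 genes, and a gene is called when its Benjamini-Hochberg adjusted p over all of them is under 0.05. Every one of the 10 members passed the filter on low levels, which asked for 1 RPKM or more in 6 or more libraries, though Vegfc rested on only 5 to 71 reads and Pgf on 6 to 126 reads in a library. In these bulk samples fewer cells of a type and less RNA per cell cannot be told apart. The median log2 difference of all tested genes between muscles was 0.55 in diabetic and 0.66 in control mice, and it was -0.04 and -0.02 after the libraries were rescaled by the median of ratios.

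Nrp1 and Vegfb had the highest levels per length of exon in gastrocnemius, and Vegfb alone in adductor. In diabetic gastrocnemius Nrp1 averaged 48.4 ± 11.7 and Vegfb 45.6 ± 14.5 RPKM (SD, n = 6), and in control gastrocnemius they averaged 47.9 ± 11.5 and 44.9 ± 13.8 RPKM. Their ranges overlapped, so no order between them is read in that muscle. In adductor Vegfb averaged 59.7 ± 18.3 RPKM in diabetic and 64.9 ± 15.3 RPKM in control mice, and its lowest library lay above the highest library of Vegfa, the next in order. Vegfa and Nrp1 overlapped there and both lay above all 7 remaining members, of which Flt1, at 6.93 ± 2.09 and 6.51 ± 2.26 RPKM in diabetic and control adductor, was the most abundant. The place of Pgf differed between muscles. It ranked 6th of 10 in gastrocnemius, at 4.64 ± 2.10 RPKM in diabetic and 4.72 ± 2.22 RPKM in control mice, and last in adductor, at 0.836 ± 0.435 and 0.877 ± 0.247 RPKM. Vegfc ranked last in gastrocnemius, at 1.17 ± 0.555 and 1.73 ± 0.627 RPKM, and 9th in adductor, with Flt4 just above it in both muscles. Below Vegfa most neighbours in the order overlapped, so it is only loosely fixed.

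**Figure D1:**
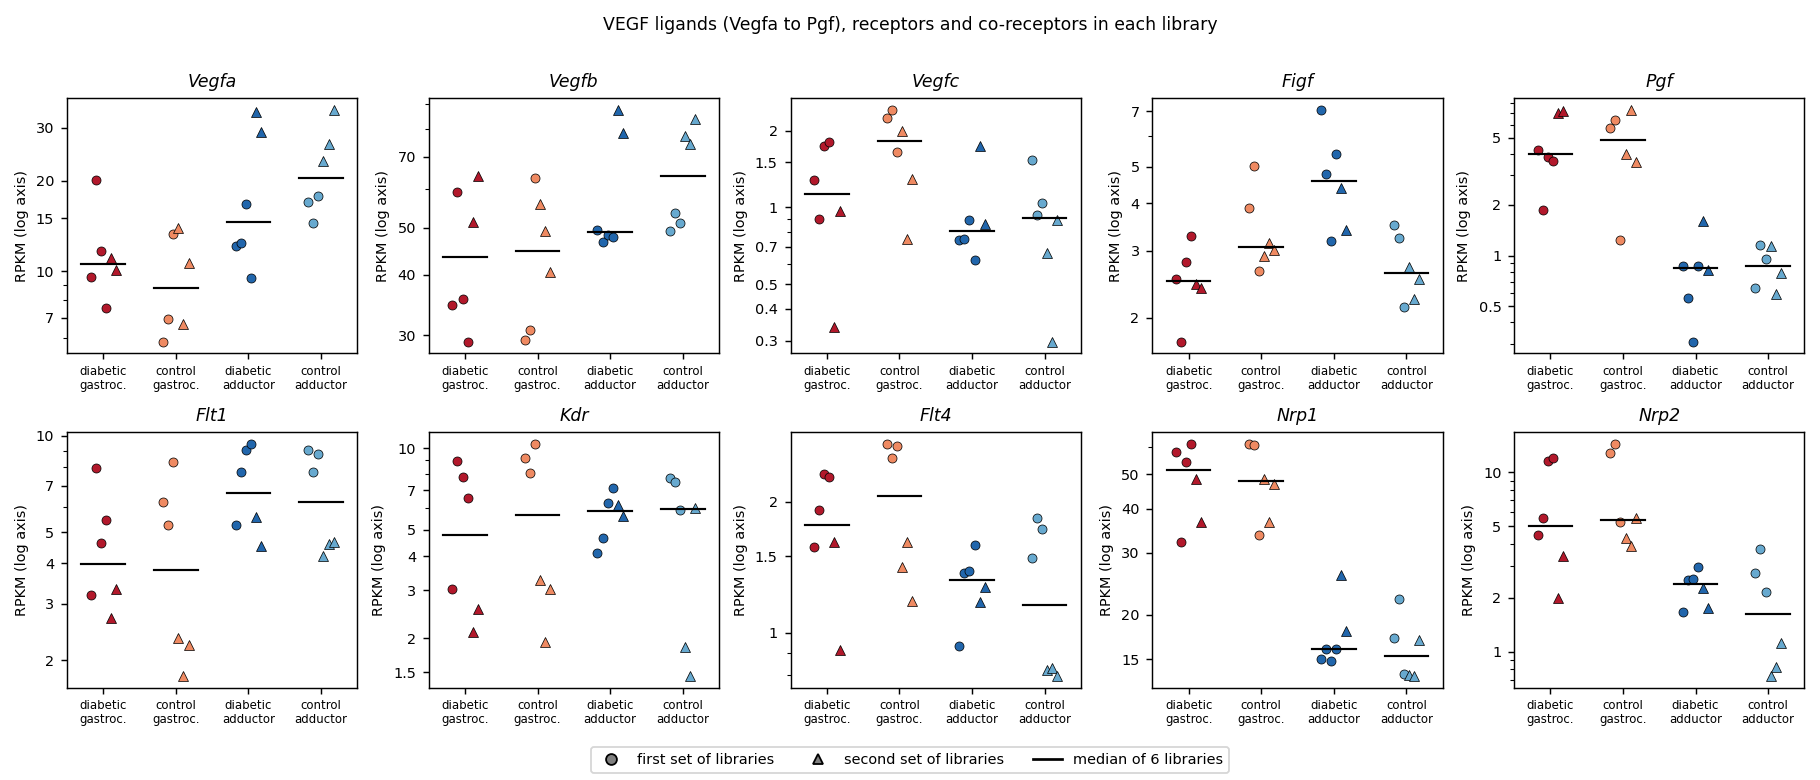
RPKM (log axis) of each of the 10 members in every library, with groups along the horizontal axis, a dot for a library of the first set, a triangle for one of the second set and a bar at the median of 6. Pgf and Nrp1 are higher in every gastrocnemius library than in any adductor library of the same mouse group, as are 29.0% of all genes in diabetic and 33.3% in control mice. Their medians are 4.03 and 51.4 RPKM in diabetic gastrocnemius against 0.844 and 16.0 RPKM in diabetic adductor.

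The first comparison set ischemic gastrocnemius against adductor within each mouse group. The co-receptors Nrp1 and Nrp2 and the ligand Pgf were higher in gastrocnemius of both mouse groups, while Vegfa was lower in control mice and Figf lower in diabetic mice. After rescaling the call of Nrp2 in diabetic mice was lost. In diabetic mice 3 of the 10 members were called higher and 1 lower, beside 48.1% and 8.83% of all genes, and in control mice 5 were called higher and 1 lower, beside 54.4% and 8.7%. The median log2 difference of the members was -0.05 in diabetic and 0.40 in control mice, against the 0.55 and 0.66 of all genes. After rescaling, 2 members were called higher and 4 lower in diabetic mice, beside 27.4% and 26.2% of all genes. In control mice 3 were called higher and 4 lower after rescaling, beside 28.4% and 26.5%. Rescaling thus turned the split of the members towards lower calls, and a share of 3 to 5 in 10 called higher is near the background of all genes. With terms for the set of libraries, limma called 3 higher and 4 lower in diabetic mice, beside 54.7% and 14.1% of all genes, and 5 higher and 3 lower in control mice, beside 63.9% and 11.7%.

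**Figure D2:**
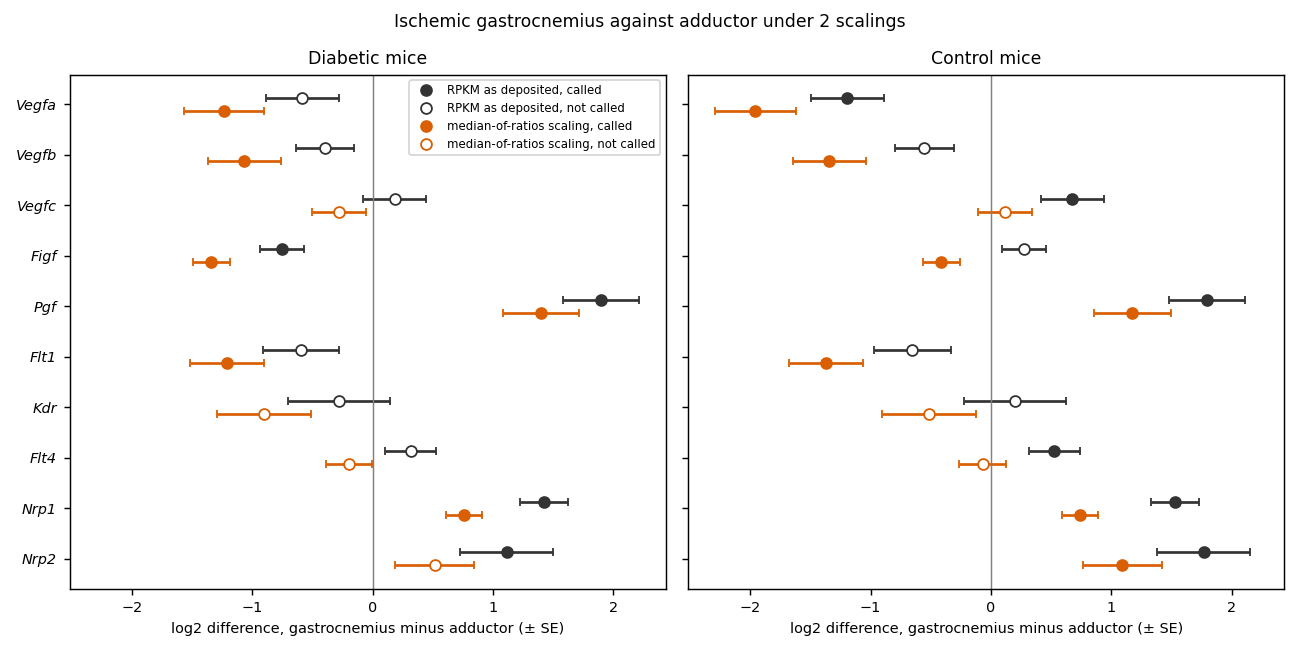
Log2 difference of ischemic gastrocnemius minus adductor (horizontal axis, bars ± SE from limma) for each member in diabetic and control mice, on RPKM as deposited (dark) and after median-of-ratios scaling (orange), with filled points called. Pgf, Nrp1 and Nrp2 lie right of 0 on both scales, and Vegfa, Vegfb and Flt1 left of it on both, while Vegfc in diabetic mice, Figf in control mice, Kdr in control mice and Flt4 in both cross 0 between the scales.

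Among the ligands, Vegfa had the clearest lower levels in control mice. Its lowest, median and highest values there were 5.83, 8.80 and 13.9 RPKM in gastrocnemius, against 14.5, 20.5 and 34.5 RPKM in adductor. No gastrocnemius library of the control mice reached the lowest adductor library. On RPKM as deposited, 3.0% of all genes showed such a separation in this direction. The log2 difference was -1.19 ± 0.30 (adjusted p = 0.00159), beside 8.7% of all genes called lower. After rescaling it was -1.96 ± 0.34, beside 26.5% of all genes called lower. In diabetic mice Vegfa had 7.56, 10.6 and 20.1 RPKM in gastrocnemius, against 9.49, 14.5 and 33.8 RPKM in adductor, and the groups overlapped. The log2 difference of -0.58 ± 0.30 was not called (adjusted p = 0.105), but it was called after rescaling (-1.23 ± 0.34, adjusted p = 0.00341) and once the set entered the fit (-0.74 ± 0.23, adjusted p = 0.00794). Leaving out diabetic gastrocnemius 2, the highest of its group, or diabetic adductor 4, the lowest of its group, also brought the call, with log2 differences of -0.75 in both fits. Within the sets of diabetic mice the difference was -0.12 ± 0.30 in the first and -1.52 ± 0.31 in the second, while in control mice it was -0.96 ± 0.34 and -1.43 ± 0.25.

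Vegfb, whose product binds VEGFR-1 and is best known from heart and oxidative muscle, had 29.1, 43.5 and 63.8 RPKM in diabetic gastrocnemius, against 46.7, 48.9 and 87.6 RPKM in diabetic adductor. In control mice it had 29.3, 44.9 and 63.3 RPKM in gastrocnemius, against 49.1, 64.0 and 83.8 RPKM in adductor. The groups overlapped in both. Neither log2 difference was called (-0.39 ± 0.24, adjusted p = 0.173, in diabetic and -0.55 ± 0.24, adjusted p = 0.0516, in control mice). Both were called after rescaling, at -1.06 ± 0.30 (adjusted p = 0.00486) and -1.34 ± 0.30 (adjusted p = 0.000649). With terms for the set limma called both too, at -0.44 ± 0.18 (adjusted p = 0.0338) and -0.55 ± 0.17 (adjusted p = 0.00634). In the second set alone both were called, at -0.53 ± 0.19 and -0.70 ± 0.15 (adjusted p = 0.043 and 0.0034). In the first set alone neither was, at -0.33 ± 0.25 and -0.41 ± 0.29 (adjusted p = 0.263 and 0.225). The control difference was also called with the replicate block, which pairs same-numbered muscles of a mouse group (adjusted p = 0.0103), and by voom on recovered reads (adjusted p = 0.0471). It was called, at -0.55 to -0.66, in 9 of 24 fits without 1 library, which were control adductor 1, 2 or 3, diabetic adductor 5, control gastrocnemius 3 or 4, and diabetic gastrocnemius 2, 4 or 6. The ratio of Vegfb to Vegfa within a library had medians of 3.74 in diabetic and 4.60 in control gastrocnemius and of 3.33 in diabetic and 2.89 in control adductor.

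Pgf, whose product binds VEGFR-1 and neuropilins but not VEGFR-2, was called higher in gastrocnemius of both mouse groups. In diabetic mice it had 1.86, 4.03 and 7.21 RPKM in gastrocnemius, against 0.307, 0.844 and 1.60 RPKM in adductor. Control mice had 1.23, 4.87 and 7.36 RPKM in gastrocnemius, against 0.588, 0.867 and 1.16 RPKM in adductor. The muscles did not overlap in either mouse group, as for 29.0% and 33.3% of all genes in this direction in diabetic and control mice. Group means stood 5.55-fold and 5.38-fold higher in gastrocnemius. The log2 differences were 1.90 ± 0.32 (adjusted p = 2.32e-05) in diabetic and 1.79 ± 0.32 (adjusted p = 3.69e-05) in control mice, and 1.40 ± 0.32 and 1.17 ± 0.32 after rescaling. Pgf was called in each of 12 other settings and 24 fits that left out 1 library. The lowest gastrocnemius values of Pgf belonged to diabetic gastrocnemius 2 and control gastrocnemius 3, which are described with the cell markers.

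A ratio within a library does not depend on its total. The ratio of Pgf to Vegfa had a median of 0.463 in diabetic gastrocnemius, with a range of 0.0927 to 0.711, and 0.630 in control gastrocnemius, with a range of 0.0922 to 1.10. In adductor the medians were 0.0462 in diabetic mice, with a range of 0.0184 to 0.0911, and 0.0434 in control mice, with a range of 0.0222 to 0.0799. All 12 gastrocnemius libraries thus lay above all 12 adductor libraries, though diabetic gastrocnemius 2 and control gastrocnemius 3 did so only narrowly. The ratio joins a member with higher and a member with lower gastrocnemius means, so its separation partly restates their own differences. No test was made of these ratios.

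**Figure D3:**
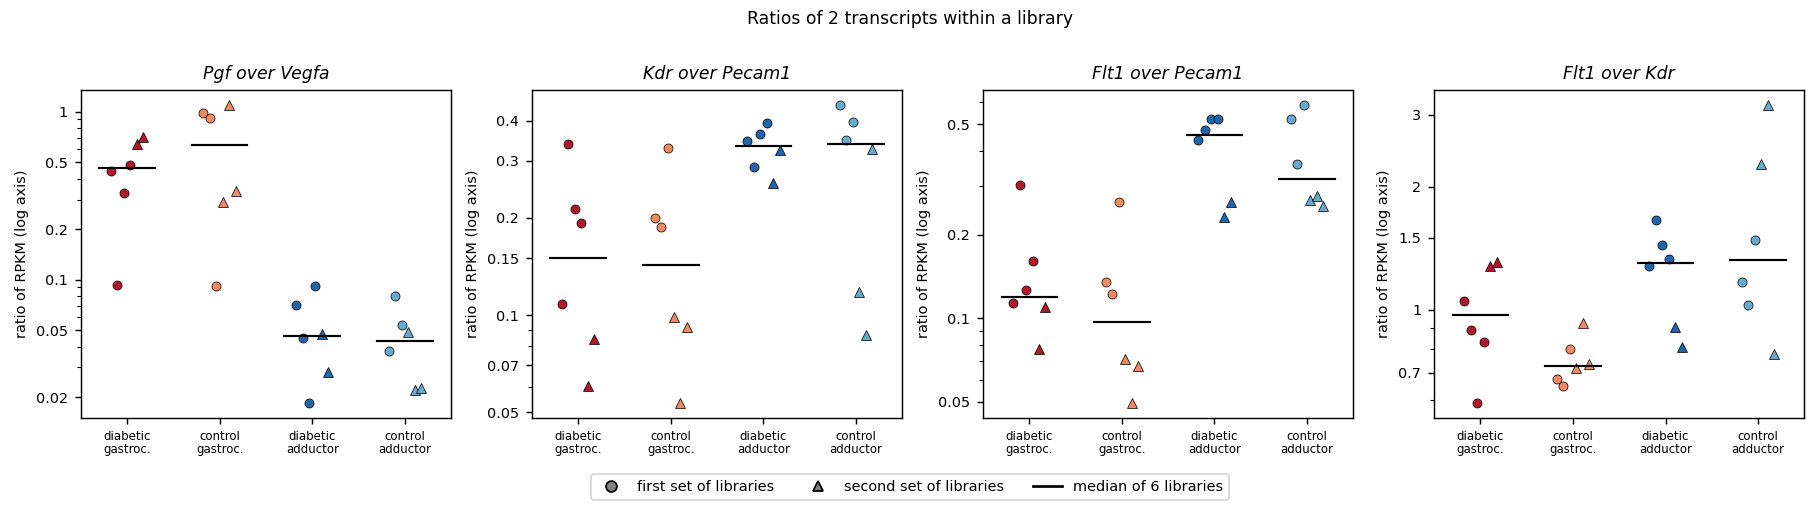
Ratios of 2 RPKM values within each library (log axis), for Pgf over Vegfa, Kdr over Pecam1, Flt1 over Pecam1 and Flt1 over Kdr, with groups along the horizontal axis, dots for the first set of libraries, triangles for the second and bars at medians of 6. Pgf over Vegfa is higher in gastrocnemius (medians 0.463 and 0.630 in diabetic and control mice) than in adductor (0.0462 and 0.0434), whereas both receptors stand lower in relation to the endothelial gene Pecam1 in gastrocnemius medians.

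The ligands of VEGFR-3 were less clear. Vegfc had 0.340, 1.13 and 1.80 RPKM in diabetic gastrocnemius, against 0.621, 0.806 and 1.74 RPKM in diabetic adductor, and the log2 difference of 0.18 ± 0.26 was not called (adjusted p = 0.573) and became -0.28 ± 0.23 after rescaling. Within the sets it was 0.60 ± 0.20 in the first, where it was called (adjusted p = 0.0179), and -0.65 ± 0.42 in the second. In control mice it had 0.753, 1.82 and 2.42 RPKM in gastrocnemius, against 0.297, 0.912 and 1.54 RPKM in adductor. The control groups overlapped, with 4 of 6 gastrocnemius libraries above every adductor library. The control difference of 0.68 ± 0.26 was called (adjusted p = 0.0272) but lay near the 0.66 of all genes, and it was 0.12 ± 0.23 after rescaling (adjusted p = 0.693) and -0.24 after quantile normalization. The call was also lost when control adductor 4 or 5, or control gastrocnemius 1, 2 or 4, was left out, at log2 differences of 0.53 to 0.64.

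Figf, whose product is a ligand of VEGFR-3, was called lower in gastrocnemius of diabetic mice. There it had 1.73, 2.49 and 3.28 RPKM in gastrocnemius, against 3.18, 4.58 and 7.07 RPKM in adductor, and 5 of 6 gastrocnemius libraries lay below every adductor library. The log2 difference was -0.75 ± 0.18 (adjusted p = 0.00112), and -1.34 ± 0.15 after rescaling (adjusted p = 3.89e-07), and it was called in all 12 other settings and all 24 fits without 1 library. Within the first set it was -0.84 ± 0.26 and within the second -0.58 ± 0.18. In control mice Figf had 2.65, 3.08 and 5.02 RPKM in gastrocnemius, against 2.13, 2.63 and 3.51 RPKM in adductor, and the groups overlapped. That difference of 0.28 ± 0.18 was not called (adjusted p = 0.192), and it had the other sign and was called after rescaling (-0.41 ± 0.15, adjusted p = 0.0258). The test of the difference between the mouse groups is given with the diabetes comparison.

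The receptor tyrosine kinases showed no common direction. Flt1 had 2.71, 3.98 and 7.97 RPKM in diabetic gastrocnemius, against 4.54, 6.65 and 9.46 RPKM in diabetic adductor. Control mice had 1.78, 3.80 and 8.29 RPKM in gastrocnemius, against 4.21, 6.20 and 9.06 RPKM in adductor. Muscles overlapped in both mouse groups, and 3 of 6 gastrocnemius libraries lay below every adductor library. The log2 differences of -0.59 ± 0.32 in diabetic (adjusted p = 0.115) and -0.65 ± 0.32 in control mice (adjusted p = 0.0765) were not called. With the replicate block they were (adjusted p = 0.00368 and 0.00165), as they were after rescaling, at -1.21 ± 0.31 (adjusted p = 0.00189) and -1.37 ± 0.31 (adjusted p = 0.000584). In the second set alone the log2 difference was -0.66 ± 0.20 in diabetic and -0.94 ± 0.16 in control mice, both called (adjusted p = 0.0217 and 0.000817). In the first set alone it was -0.56 ± 0.25 and -0.37 ± 0.29, and neither was called (adjusted p = 0.0625 and 0.270).

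Kdr had 2.11, 4.80 and 8.94 RPKM in diabetic gastrocnemius, against 4.12, 5.88 and 7.13 RPKM in diabetic adductor, and 1.93, 5.67 and 10.4 RPKM in control gastrocnemius, against 1.45, 5.97 and 7.76 RPKM in control adductor. The ranges of the muscles lay over each other in both mouse groups. The log2 difference in diabetic mice was -0.28 ± 0.42 (adjusted p = 0.596), and -0.90 ± 0.39 after rescaling (adjusted p = 0.056). Of 12 other settings only quantile normalization called it, at -0.92 (adjusted p = 0.0429), and within the sets it was 0.17 ± 0.27 in the first and -1.18 ± 0.50 in the second. In control mice it was 0.20 ± 0.42 (adjusted p = 0.698), and -0.51 ± 0.39 after rescaling (adjusted p = 0.278). Flt4 had 0.913, 1.77 and 2.31 RPKM in diabetic gastrocnemius, against 0.934, 1.32 and 1.59 RPKM in diabetic adductor, and was not called there (0.32 ± 0.21, adjusted p = 0.208, and -0.19 ± 0.19 after rescaling), though it was in the first set alone (0.47 ± 0.17, adjusted p = 0.0234). In control mice it had 1.18, 2.06 and 2.72 RPKM in gastrocnemius, against 0.796, 1.16 and 1.83 RPKM in adductor. That log2 difference of 0.53 ± 0.21 was called (adjusted p = 0.0327), but it was -0.07 ± 0.19 after rescaling. The call was lost without any 1 of control adductor 4, 5 and 6 and control gastrocnemius 1, 2 and 3, at 0.45 to 0.47.

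Receptor levels were also set against Pecam1, an adhesion molecule of endothelial cells and some leukocytes, which averaged 31.7 ± 4.13 RPKM in diabetic and 37.1 ± 5.97 RPKM in control gastrocnemius, and 17.5 ± 3.87 and 17.4 ± 2.33 RPKM in diabetic and control adductor. The ratio of Flt1 to Pecam1 had medians of 0.120 and 0.0967 in diabetic and control gastrocnemius, and 0.458 and 0.317 in diabetic and control adductor. For Kdr to Pecam1 the medians were 0.151 and 0.143 in gastrocnemius of diabetic and control mice, and 0.334 and 0.338 in adductor. Both ratios overlapped between muscles in both mouse groups. For Flt1 to Pecam1, diabetic gastrocnemius 2 reached 0.302 and control gastrocnemius 3 reached 0.263, above the lowest adductor libraries, at 0.232 in diabetic and 0.254 in control mice. For Kdr to Pecam1 the same libraries reached 0.339 and 0.329, and the lowest adductor libraries had 0.257 in diabetic and 0.0866 in control mice. The ratio of Flt1 to Kdr had medians of 0.971 and 0.726 in diabetic and control gastrocnemius, and 1.30 and 1.32 in diabetic and control adductor. Pecam1 reads from leukocytes were not separated, and their part in these ratios was not tested.

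The neuropilins were the co-receptors with higher levels in gastrocnemius. Nrp1 had 32.2, 51.4 and 61.1 RPKM in diabetic gastrocnemius, against 14.8, 16.0 and 25.9 RPKM in diabetic adductor. Control mice had 33.8, 47.8 and 61.0 RPKM in gastrocnemius, against 13.4, 15.3 and 22.2 RPKM in adductor. Muscles were fully separated in both mouse groups, as for 29.0% of all genes in this direction in diabetic and 33.3% in control mice. Behind each value stood 833 to 5594 reads. The log2 differences were 1.42 ± 0.20 (adjusted p = 2.41e-06) in diabetic and 1.53 ± 0.20 (adjusted p = 7.79e-07) in control mice, or 0.76 ± 0.15 and 0.74 ± 0.15 after rescaling, and they were called in every fit. A microRNA gene, Mir1903, overlaps Nrp1 and was listed with 0 to 48 reads.

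Nrp2, which binds VEGF-C as well as semaphorins, had 1.99, 5.03 and 12 RPKM in diabetic gastrocnemius, against 1.66, 2.40 and 2.97 RPKM in diabetic adductor. In control mice it had 3.87, 5.46 and 14.5 RPKM in gastrocnemius, against 0.735, 1.64 and 3.74 RPKM in adductor. The control muscles did not overlap, as for 33.3% of all genes in this direction. In diabetic mice 5 of 6 gastrocnemius libraries lay above every adductor library. The log2 difference was 1.11 ± 0.39 (adjusted p = 0.0174) in diabetic and 1.77 ± 0.39 (adjusted p = 0.000397) in control mice. After rescaling it was 0.52 ± 0.33 (adjusted p = 0.188) in diabetic mice and 1.09 ± 0.33 (adjusted p = 0.00673) in control mice. The diabetic call was also lost without diabetic gastrocnemius 3 or 4, at 0.91 and 0.90. Within the sets of diabetic mice the difference was 1.51 ± 0.35 in the first and 0.32 ± 0.27 in the second.

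Nrp2 was listed with 6 transcripts. The level of the shorter form (4695 bases) over that of the longer (6672 bases) parted the sets in control gastrocnemius, at 0.862 to 0.978 in the first and 0.448 to 0.603 in the second. In diabetic gastrocnemius it did not, at 0.549 to 0.937 in the first and 0.366 and 1.60 in the second. In adductor it parted the sets too, at 0.741 to 0.985 in diabetic and 0.876 to 0.963 in control libraries of the first set, and 0.253 to 0.338 and 0.169 to 0.355 in those of the second. A read in an exon that both forms hold counts for both. The 9 listed transcripts of Vegfa likewise share exons and their mean levels ran only from 15.3 to 15.6 RPKM, so its isoforms cannot be told apart here.

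Where the levels were read is given in the mm9 coordinates of the table. On the minus strand lie Vegfa (NM_001110267) at 46153943 to 46162112 of chromosome 17, Vegfb (NM_001185164) at 7056962 to 7062141 of chromosome 19 and Pgf (NM_001271705) at 86507589 to 86516932 of chromosome 12. On the plus strand lie Figf (NM_010216) at 160811480 to 160840579 of chromosome X and Vegfc (NM_009506) at 55162886 to 55271808 of chromosome 8. Flt1 (NM_010228) and Kdr (NM_010612) lie on the minus strand of chromosome 5, from 148373772 to 148537564 and from 76329299 to 76374453. Flt4 (NM_008029) at 49423181 to 49466241 of chromosome 11, Nrp1 (NM_008737) at 130882973 to 131029375 of chromosome 8 and Nrp2 (NM_001077405) at 62749891 to 62865266 of chromosome 1 are plus-strand genes. Each value covers all annotated exons of the transcript, untranslated ends included.

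Markers of several cell types moved with the muscle comparison. Of all genes, 48.1% were called higher and 8.83% lower in diabetic mice, and 54.4% and 8.7% in control mice. After rescaling these shares were 27.4% and 26.2% in diabetic and 28.4% and 26.5% in control mice, and the counts below stand beside them. In gastrocnemius the summed level of 12 macrophage markers ranged from 927 to 2251 RPKM in diabetic and from 692 to 2384 RPKM in control mice, against 171 to 267 and 99.9 to 509 RPKM in diabetic and control adductor. Limma called 11 of the 12 higher in both mouse groups (10 in diabetic and 11 in control mice after rescaling, with 1 lower in each), and Cd68, a lysosomal protein of macrophages, averaged 110 ± 34.2 and 114 ± 45.4 RPKM in diabetic and control gastrocnemius, against 8.08 ± 3.40 and 5.37 ± 5.56 RPKM in adductor. All 8 markers of regenerating muscle were called higher in both mouse groups on both scales. The 8 fibroblast markers were also all called higher as deposited, and 5 in diabetic and 7 in control mice after rescaling. Of 10 muscle fibre markers 4 were called lower in diabetic and 6 in control mice, and 7 and 8 after rescaling. Of 16 endothelial markers 12 were called higher in both mouse groups as deposited, and 2 in diabetic and 4 in control mice after rescaling. The summed endothelial level ran from 195 to 290 RPKM in diabetic and 218 to 348 RPKM in control gastrocnemius, and from 113 to 175 and 109 to 156 RPKM in diabetic and control adductor. Of 8 markers of smooth muscle and pericytes 5 were called higher and 2 lower in both mouse groups, and 4 higher and 2 lower after rescaling. Of 4 tested Schwann cell markers 2 were called higher in both mouse groups, but after rescaling 0 were higher in either and 1 was lower in control mice. Of 6 adipocyte markers 1 was higher in diabetic and 0 in control mice, and after rescaling 1 was lower in each. Of 5 tested erythroid markers 0 were called as deposited, and 1 was lower in diabetic mice after rescaling. No endothelial or macrophage marker was at 0 in any library, while the Schwann cell gene Cdh19 and the erythroid gene Slc4a1 were at 0 in some. The part of these cell types in the members' differences was not tested.

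A pair of libraries stood apart within gastrocnemius. Diabetic gastrocnemius 2 and control gastrocnemius 3 had the lowest macrophage sums of their groups, 927 and 692 RPKM, while the other 10 gastrocnemius libraries held 1521 to 2384 RPKM. Their muscle fibre sums, 49337 and 49778 RPKM, lay above the 12876 to 25533 RPKM of the other gastrocnemius libraries of the first set and within the 34778 to 52624 RPKM of the second. In these libraries Nrp1 was lowest of its group, at 32.2 and 33.8 RPKM, and so was Pgf, at 1.86 and 1.23 RPKM. Figf was lowest of its group in both too, at 1.73 and 2.65 RPKM. Flt1 was highest of its group in both, at 7.97 and 8.29 RPKM, and so was Kdr, at 8.94 and 10.4 RPKM. Vegfa reached 20.1 RPKM in diabetic gastrocnemius 2, the highest of the 12 gastrocnemius libraries, and 13.3 RPKM in control gastrocnemius 3. Without diabetic gastrocnemius 2 the log2 difference of Flt1 in diabetic mice was -0.76 and called (adjusted p = 0.0461), and without control gastrocnemius 3 that in control mice was -0.86 and called (adjusted p = 0.0175). Leaving out control gastrocnemius 1 also brought the control call, at -0.78 (adjusted p = 0.0438).

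**Figure D4:**
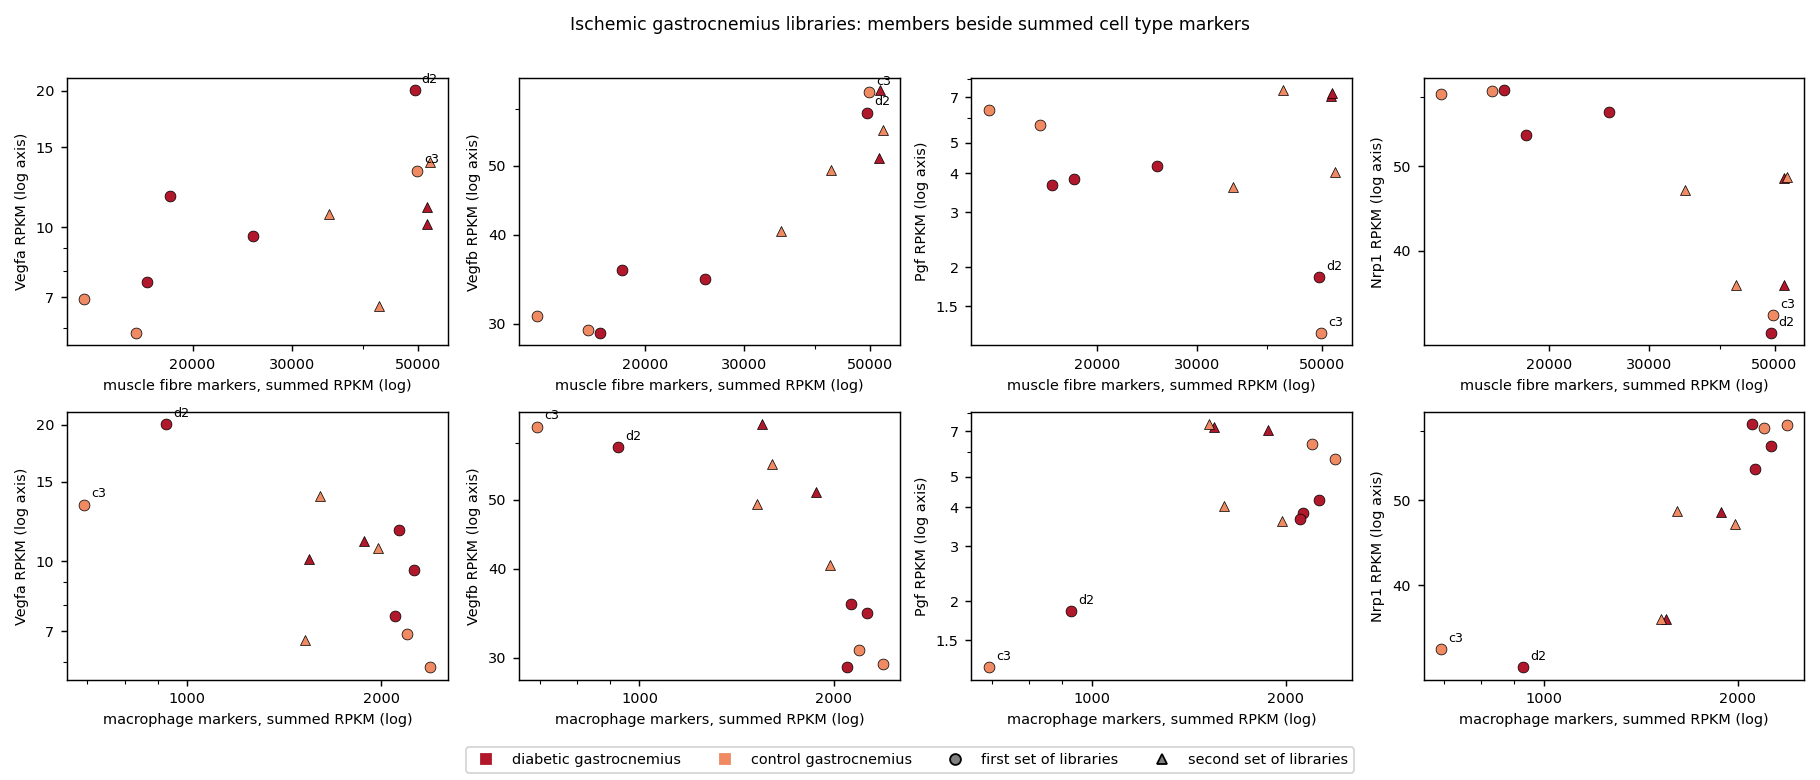
RPKM of Vegfa, Vegfb, Pgf and Nrp1 (vertical log axes) against the summed RPKM of 10 muscle fibre markers (upper row) and 12 macrophage markers (lower row, log axes) in the 12 gastrocnemius libraries, coloured by mouse group, with dots for the first set and triangles for the second. Diabetic gastrocnemius 2 (d2) and control gastrocnemius 3 (c3) have the lowest macrophage sums (927 and 692 RPKM) and the lowest Pgf (1.86 and 1.23 RPKM) of their groups.

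Genes around the ligands and receptors were read from 5 lists of the pathway. The counts of all 5 stand beside 48.1% of all genes called higher and 8.83% lower in diabetic mice, and 54.4% and 8.7% in control mice. After rescaling these shares were 27.4% and 26.2% in diabetic and 28.4% and 26.5% in control mice. Of 12 regulators of VEGF-A, 4 were called higher and 4 lower in diabetic mice, and 5 higher and 6 lower in control mice. After rescaling 3 were higher and 8 lower in diabetic mice, and 3 higher and 7 lower in control mice, with medians of -0.82 and -0.80. Among them Hif1a, the oxygen-regulated subunit of hypoxia-inducible factor 1, averaged 14.8 ± 7.25 RPKM in diabetic and 20.8 ± 9.11 RPKM in control gastrocnemius, against 5.04 ± 1.21 and 4.65 ± 0.839 RPKM in diabetic and control adductor. In control mice its log2 difference was 1.94 ± 0.30 (adjusted p = 6.29e-06). Vhl, the ubiquitin ligase subunit that marks Hif1a for degradation, rose by 1.49 ± 0.21 (adjusted p = 2.72e-06), and Zfp36l1, which promotes decay of messenger RNAs with AU-rich elements, Vegfa among them, rose by 2.11 ± 0.30 (adjusted p = 2.32e-06), all on the log2 scale. The 6 called lower in control mice, named after their values were seen, were the oxygen-sensing hydroxylases Egln1 (-1.43), Egln2 (-0.42) and Hif1an (-0.85), Epas1 (-0.68), which encodes HIF-2 alpha, and the regulators of oxidative metabolism Ppargc1a (-0.94) and Esrra (-0.58). Egln3, a further hydroxylase on the list, was not among them and had a positive log2 difference in control mice. The median log2 difference of the list was -0.16 in diabetic and -0.03 in control mice, below the 0.55 and 0.66 of all genes.

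Of 25 tested signal transducers of the VEGF receptors, 11 were called higher and 2 lower in diabetic mice, and 14 higher and 1 lower in control mice. Their median of 0.66 in control mice was that of all genes, and after rescaling 6 were called higher and 9 lower there, and 6 higher and 11 lower in diabetic mice. In control mice the kinase genes Fyn, Mapk3 and Prkcb rose by 2.02 ± 0.25, 1.69 ± 0.21 and 1.95 ± 0.28 (adjusted p = 3.4e-07, 5.44e-07 and 3.29e-06). Of 11 tested genes that VEGF-A is known to induce in endothelial cells, 6 were called higher and 1 lower in diabetic and 7 higher and 1 lower in control mice, with medians of 1.39 and 1.71. After rescaling 6 were higher in both mouse groups, with 1 lower in diabetic and 2 in control mice. Vcam1 and Icam1, adhesion molecules for leukocytes, rose by 2.81 ± 0.28 and 1.91 ± 0.21 in control mice, and the homeobox gene Hlx by 2.11 ± 0.22 (adjusted p = 3.52e-08, 1.26e-07 and 6.07e-08). Vcam1 averaged 12.1 ± 4.97 and 13 ± 3.97 RPKM in diabetic and control gastrocnemius, against 1.40 ± 0.338 and 1.49 ± 0.951 RPKM in adductor.

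Of 23 tested partners and inhibitors of the receptors, 16 were called higher and 1 lower in diabetic mice, and 16 higher and 0 lower in control mice. After rescaling 10 were higher and 4 lower in diabetic and 11 higher and 4 lower in control mice. The vasohibin genes Vash1, whose product is a secreted protein known as an inhibitor of angiogenesis, and Vash2 were among those with the smallest p. Vash1 averaged 12.4 ± 1.99 and 15.1 ± 2.53 RPKM in diabetic and control gastrocnemius, against 2.08 ± 0.603 and 1.85 ± 0.965 RPKM in adductor, and Vash2 averaged 9.53 ± 3.84 and 8.85 ± 3.27 RPKM, against 0.322 ± 0.126 and 0.507 ± 0.651 RPKM. In control mice they rose by 2.81 ± 0.22 and 3.31 ± 0.30 (adjusted p = 3.17e-09 and 1.14e-08), and Sema3f, a semaphorin that binds Nrp2, rose by 1.42 ± 0.17 (adjusted p = 3.28e-07). Of 6 tested genes of VEGF-C processing and lymphatic endothelium, 5 were called higher in diabetic and 4 in control mice, with none lower as deposited and 1 lower in each after rescaling. In control mice Pdpn, a glycoprotein of lymphatic endothelium and of activated fibroblasts and macrophages, rose by 3.01 ± 0.27, Ccbe1, a factor needed to activate VEGF-C, by 2.61 ± 0.29 and Itga9, an integrin subunit of lymphatic valves, by 1.51 ± 0.24 (adjusted p = 1.19e-08, 1.15e-07 and 9.28e-06). The genes named from the 5 lists for their smallest p, all called higher, kept positive log2 differences in control mice after rescaling. These ran from 0.74 for Sema3f to 2.77 for Vash2.

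The second comparison set diabetic against control mice within each muscle. No member was called in gastrocnemius or adductor, nor in the difference between the muscles' diabetes effects, by limma or by voom on recovered reads. Of all genes, 0.00808% were called higher in gastrocnemius and 0.0323% in adductor, and 0.0% lower in either, so at this spread few genes of any kind passed. With terms for the set 0 members were called, beside 0.0404% of all genes higher in adductor and 0.0% in gastrocnemius. At an unadjusted p under 0.05 limma listed 0 members in gastrocnemius, 1 in adductor and 1 for the difference between the muscles, and in both cases it was Figf. Among all 12382 genes 156, 339 and 154 were at such a p in these comparisons. With terms for the set 2 members were at such a p in gastrocnemius. No member separated diabetic from control libraries completely in either muscle, as 0.0323% of all genes did in either direction in gastrocnemius, and 0.194% upward and 0.0242% downward in adductor.

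Figf had 3.18, 4.58 and 7.07 RPKM in diabetic adductor, against 2.13, 2.63 and 3.51 RPKM in control adductor. The groups overlapped, with 4 of 6 diabetic libraries above every control library. The log2 difference was 0.66 ± 0.18, with an unadjusted p of 0.00132 and an adjusted p of 0.858, and it was 0.67 ± 0.28 in the first set and 0.55 ± 0.17 in the second. In gastrocnemius Figf had 1.73, 2.49 and 3.28 RPKM in diabetic mice, against 2.65, 3.08 and 5.02 RPKM in control mice, and 4 of 6 diabetic libraries lay below every control library. That log2 difference was -0.37 ± 0.18 (adjusted p = 0.999), with -0.48 ± 0.28 and -0.27 ± 0.17 within the first and second set. The gastrocnemius effect minus the adductor effect was -1.16 ± 0.39 in the first set and -0.81 ± 0.24 in the second, and pooled it had an unadjusted p of 0.000532 and an adjusted p of 1. The order of the group means was thus the same in both sets, but no test over all genes passed. The values rest on 32 to 170 reads in a library.

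**Figure D5:**
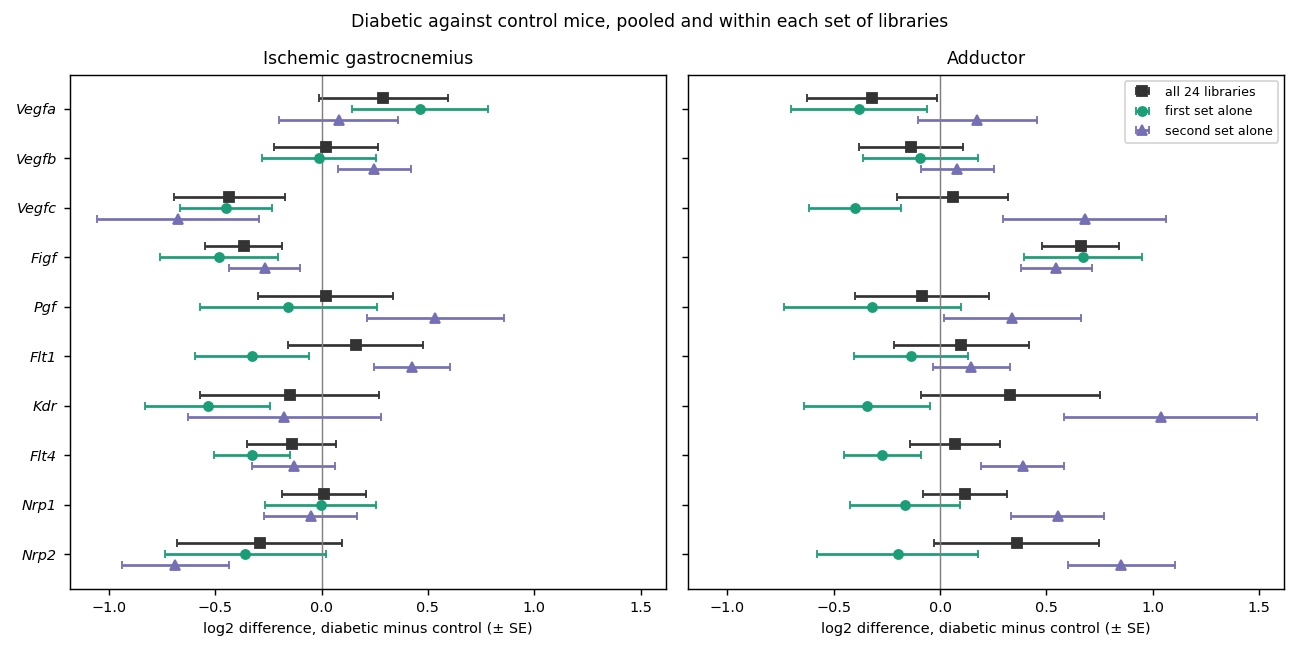
Log2 difference of diabetic minus control mice (horizontal axis, bars ± SE from limma) for each member in ischemic gastrocnemius and adductor, pooled over all libraries (squares), in the first set alone (dots) and in the second set alone (triangles). Figf keeps its sign in both sets, at 0.67 and 0.55 in adductor and -0.48 and -0.27 in gastrocnemius. Each of the other 9 members changes sign between the sets in adductor, and the share of all genes doing so was not computed.

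In adductor all 9 other members differed in sign between the sets. The share of all genes that did so was not computed. Their median log2 difference was -0.0082 in the first set and 0.105 in the second. Kdr was -0.34 ± 0.29 in the first set and 1.04 ± 0.45 in the second, around a pooled 0.33 ± 0.42. In the second set diabetic adductor 5 and 6 had 6.16 and 5.60 RPKM of Kdr, against 1.85, 1.45 and 6.01 RPKM in control adductor 4, 5 and 6. The value of control adductor 6 thus lay between those of the diabetic libraries. Nrp2 was -0.20 ± 0.38 in the first set and 0.85 ± 0.25 in the second, Vegfc -0.40 ± 0.22 and 0.68 ± 0.38, Nrp1 -0.16 ± 0.26 and 0.55 ± 0.22, and Flt4 -0.27 ± 0.18 and 0.39 ± 0.19. Vegfa was -0.38 ± 0.32 and 0.18 ± 0.28, Pgf -0.32 ± 0.42 and 0.34 ± 0.32, Flt1 -0.14 ± 0.27 and 0.15 ± 0.18, and Vegfb -0.09 ± 0.27 and 0.08 ± 0.17. None of these was called in its set, and the second set holds only 2 diabetic libraries in each muscle. Within the second set Gapdh ran with diabetes too, and the part of whatever parts the sets was not tested.

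In gastrocnemius Vegfb, Pgf and Flt1 differed in sign between the sets and the other members did not. Vegfc was -0.45 ± 0.22 in the first set and -0.68 ± 0.38 in the second, with 0.340, 1.13 and 1.80 RPKM in diabetic and 0.753, 1.82 and 2.42 RPKM in control mice overall. Nrp2 was -0.36 ± 0.38 and -0.69 ± 0.25, Kdr -0.54 ± 0.29 and -0.17 ± 0.45, and Flt4 -0.33 ± 0.18 and -0.13 ± 0.19. Vegfa was 0.46 ± 0.32 and 0.08 ± 0.28. Nrp1 differed least, at 0.01 ± 0.20 pooled, with a mean of 48.4 RPKM in diabetic and 47.9 RPKM in control mice. Flt1 had opposite signs, -0.33 ± 0.27 and 0.43 ± 0.18. None of them was called in its set. The 5 pathway lists likewise had 0 genes called in either muscle by limma.

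Over the 10 members and 4 groups, the sets of libraries overlapped in 25 of 40 cases. The same share over all genes was not computed, so the separations below are not read as particular to the members. Flt1 averaged 6.59 RPKM in the first and 2.12 RPKM in the second set of control gastrocnemius, and 8.52 and 4.50 RPKM in control adductor, with no overlap in either. Kdr averaged 6.60 and 2.33 RPKM in diabetic and 9.21 and 2.74 RPKM in control gastrocnemius, again with no overlap. Flt1 overlapped between the sets in both diabetic groups, and Kdr in both adductor groups, where the means in diabetic adductor were 5.55 RPKM in the first and 5.88 RPKM in the second set. Vegfa and Vegfb ran the other way in adductor. Vegfa averaged 12.7 RPKM in the first and 31.4 RPKM in the second set of diabetic adductor, and 16.4 and 28.1 RPKM in control adductor. Vegfb averaged 48.1 and 83.0 RPKM in diabetic and 51.3 and 78.5 RPKM in control adductor, and neither gene overlapped between sets there. Summed muscle fibre markers showed the same split, at 39150 to 50190 RPKM in the first and 70521 to 84542 RPKM in the second set of diabetic adductor, and 46867 to 53839 and 89807 to 96579 RPKM in control adductor. Figf overlapped between the sets in every group.

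For each member the genes with the most similar pattern were sought by Pearson's r of log2(RPKM + 0.5) over the 24 libraries after centring within each set, among genes that averaged 2 RPKM or more. These values describe the libraries, which share totals and the muscle difference, and carry no test. Vegfa was closest to Rab28 (r = 0.93) and Gpd1 (0.92), a glycerol phosphate dehydrogenase. Vegfb was closest to Coq9 (0.97) and Coq10a (0.96), genes of coenzyme Q synthesis and function. Flt1 was closest to Epas1 (0.96) and to Pdp1 (0.95), a pyruvate dehydrogenase phosphatase. Kdr was closest to 5031439G07Rik (0.88) and Podxl (0.86), a sialomucin of endothelium, Flt4 to Fli1 and Arap3 (0.89 each), and Vegfc to Erg (0.88) and Cav1 (0.85). Fli1 and Erg are ETS factors of endothelial cells. Pgf was closest to Birc5, a mitotic protein, and AA467197 (0.96 each), Nrp1 to Map3k11 and Gnai2 (0.99 each) and Nrp2 to Gng12 and Fmr1 (0.99 each). The lowest of the leading values belonged to Figf, at 0.75 for Dnajc2 and 0.72 for Psmd2.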

How the data were processed

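Poly(A) RNA of 24 muscle samples in 4 groups of 6 was analysed from 1 table of the whole series. Per the file headers, the authors counted exon reads for each mm9 transcript with a HOMER program and deposited them as RPKM, and another deposited column gives transcript length in bases. The submitters' processing notes list TopHat, HOMER and mm9 without versions. No strand option or rule for reads with several matches appears in the header, so reads of overlapping genes may be shared. The table listed 33022 transcripts under 24016 symbols. RPKM times length and library total gave whole reads within 0.01 for 99.97% of values above 0, and voom was run on those reads as an alternative. Over the 60 pairs of libraries within groups chi-square over degrees of freedom for the recovered reads was 8.967 to 269.054, far above sampling noise, and every library was kept as its own sample. Depth was 7.13 to 15.6 M reads, and intervals from reads cover counting error only.

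The transcript with the highest mean was kept per symbol, and limma 3.58.1 (R 4.3.3) with an intensity trend was fitted to log2(RPKM + 0.5) of the 12382 genes that reached 1 RPKM in 6 or more libraries, with 4 group means. The 5 contrasts were gastrocnemius minus adductor in each mouse group, diabetic minus control in each muscle, and the difference between the diabetes effects. P-values were adjusted over all tested genes. The members and lists were chosen with earlier results of these data known. The genes named were the 10 members, up to 3 called genes with the smallest p of each pathway list in control mice, Pecam1, Cd68, and for each member the 2 most similar genes. The 6 regulators of VEGF-A called lower in control mice were added after their values were seen.

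Deviations from the group means were correlated across genes between same-numbered muscles of a mouse group (r of 0.254 to 0.736 in 12 pairs). Same-numbered muscles of a mouse group also fell in the same set, so these values do not by themselves show pairing. The replicate block took the numbers to pair the muscles, which the labels do not state, and it also absorbs the set. The main fit left the muscles unpaired, so its p-values ignore any such pairing. Within the sets r ran from -0.09 to 0.63. Same-numbered diabetic and control samples were not paired in the main fit. For the diabetes contrasts, however, the replicate block held same numbers of a muscle together. Number 4 there joined a diabetic library of the first set with a control library of the second. Alternatives were other pseudocounts, no filter, other scalings, other transcripts, set terms, each set alone, a replicate block, 2 groups in a fit and leaving out each library. The limma script was tested on simulated data with known changes.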

Additional observations from a re-analysis of the deposited data

Results flagged for a closer look

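In 40 groups of 6 values, 10 members in 4 groups, the gap between the highest or lowest library and its neighbour was set against the group's range, and 3 groups passed Dixon's 95% critical value for 6 samples. Chance passes about 1 in 20 groups. Vegfa reached 20.1 RPKM in diabetic gastrocnemius 2, against 7.56 to 11.7 RPKM in the other 5 libraries. That library also had the lowest summed macrophage markers of its group. Vegfc reached 1.74 RPKM in diabetic adductor 5, against 0.621 to 0.895 RPKM in the others, and the value rests on 29 reads. Nrp1 reached 25.9 RPKM in the same library, against 14.8 to 18.0 RPKM.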

How the results depend on the processing

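Pgf and Nrp1 in both mouse groups, Vegfa and Nrp2 in control mice and Figf in diabetic mice were called between muscles in all 12 other settings and all 24 fits without 1 library. In diabetic mice 4 members were called, but 9 after quantile normalization and 7 with set terms, and without 1 library 3 to 6. In control mice the 6 calls became 5 to 8, and 4 to 7 without 1 library. No setting called a member between diabetic and control mice. With the replicate block, which holds same-numbered muscles together, 8 members were called in control and 5 in diabetic mice, and beyond Vegfb and Flt1 it changed no call.

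The following log2 differences changed sign, and the cause was not tested. In the first set alone, diabetic minus control in adductor was -0.40 for Vegfc, -0.14 for Flt1, -0.34 for Kdr, -0.27 for Flt4, -0.16 for Nrp1 and -0.20 for Nrp2, and in gastrocnemius -0.012 for Vegfb, -0.16 for Pgf, -0.33 for Flt1 and -0.0037 for Nrp1. There the muscle difference of Kdr in diabetic mice was 0.17, and the difference of diabetes effects was -0.19 for Flt1 and 0.16 for Nrp1. In the second set alone, diabetic minus control was 0.18 for Vegfa, 0.080 for Vegfb and 0.34 for Pgf in adductor and -0.052 for Nrp1 in gastrocnemius, the muscle difference of Vegfc in diabetic mice was -0.65, and the difference of effects for Vegfa was -0.10. After median-of-ratios scaling the muscle difference was -0.28 for Vegfc and -0.19 for Flt4 in diabetic mice and -0.41 for Figf, -0.51 for Kdr and -0.070 for Flt4 in control mice, and the difference of effects for Nrp1 was 0.016. After quantile normalization it was -0.65 for Vegfc and -0.50 for Flt4 in diabetic mice and -0.24 for Vegfc, -0.59 for Figf, -0.61 for Kdr and -0.40 for Flt4 in control mice, and diabetic minus control for Vegfc in adductor was -0.000275. With set terms, diabetic minus control was -0.020 in adductor and -0.017 in gastrocnemius for Flt1 and -0.024 in gastrocnemius for Nrp1, and by voom Pgf was -0.027 in gastrocnemius.

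Without 1 library, diabetic minus control in adductor spanned -0.091 to 0.18 for Vegfc, -0.23 to 0.049 for Pgf, -0.0022 to 0.20 for Flt1 and -0.0070 to 0.16 for Flt4. In gastrocnemius it spanned -0.088 to 0.14 for Vegfb, -0.27 to 0.22 for Pgf, -0.020 to 0.37 for Flt1, -0.39 to 0.045 for Kdr and -0.081 to 0.12 for Nrp1. The difference of effects spanned -0.19 to 0.31 for Pgf, -0.12 to 0.27 for Flt1 and -0.20 to 0.010 for Nrp1, and the muscle difference of Kdr in control mice -0.062 to 0.44.

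Over all genes, 5958 were called higher and 1093 lower between muscles in diabetic mice, but 3396 and 3248 after median-of-ratios scaling and 3035 and 3562 after quantile normalization, with 1741 lower with set terms. In control mice 6730 and 1077 became 3520 and 3279, and 3158 and 3503, with 594 lower in the first set alone. Between diabetic and control mice 1 gene was higher in gastrocnemius (20 in the second set, where 7 were lower, and 0 in the first) and 4 in adductor (12 in the second set, where 2 were lower, and 1 in the first). The fit of 2 groups gives no difference of effects. Among the 10 members Vegfc and Pgf rested on the fewest reads, 5 to 71 and 6 to 126 in a library.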
